A study of Mus musculus with 4 samples.

Results

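Interferon-stimulated genes and nucleic acid sensors were examined in livers of *Usp21* knockout (KO) and wild-type (WT) mice, as 9 genes listed by symbol: the sensors and adaptor *Ifih1* and *Sting1*, the transcription factors *Stat2* and *Irf7*, the effectors *Ifit1*, *Ifit3*, *Isg15* and *Oasl2*, and *Usp18os*. Of the 35739 genes with RNA-seq abundances, 8 carried one of these symbols, while no row carried the symbol *Usp18os*, which was not analysed here. All 8 had a mean of at least 1 TPM (an abundance corrected for transcript length and scaled to the same total in each library) over the 4 libraries and were among the 9581 genes tested.

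RNA-seq libraries came from livers of WT mice (replicates 2 and 3) and of *Usp21* KO mice (replicates 1 and 3), 2 per genotype. The animals were littermates of 10 to 11 weeks kept on a normal diet, and their sex is not given in the sources used here. The KO mice lack exons 3 and 4 of *Usp21* in every tissue, because Cre recombinase removed them from a floxed allele made in 129/Sv embryonic stem cells, and the KO alleles were carried on a mixed B6 × 129/Sv background. The WT littermates carried intact *Usp21* alleles. The labels do not state whether each library came from a single animal, so the p-values measure only the spread between these libraries. *Usp21* itself measured 4.07 and 6.29 TPM in WT livers against 1.64 and 2.93 TPM in KO livers, which left each KO library below each WT library (difference in log2(TPM + 1) -0.92, adjusted p = 0.464 and unadjusted p = 0.0336 from limma). TPM does not hold the depth, and the separate table of scaled counts gave back 102898 to 148164 reads per library. It listed 7 of the 8 genes at 0, but also 428 of 686 genes that reached 100 TPM throughout. The cause of these zeros was not tested, so they were not read as a lack of RNA or of depth.

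Type I interferon is secreted after RIG-I (encoded by *Rigi*) or MDA5 (*Ifih1*) binds viral RNA, or after cGAS binds DNA in the cytosol and its product activates STING (*Sting1*). Interferon then acts through its receptor to assemble a complex with STAT2 and IRF9 that binds a DNA motif, the interferon-stimulated response element, in front of interferon-stimulated genes. USP21 is a deubiquitinating enzyme that has been described as removing ubiquitin from RIG-I and from STING in cultured cells and immune cells. Such changes act on proteins, whereas the values below are RNA abundances in whole liver, where fewer cells of a type and less RNA per cell cannot be told apart.

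The promoter sequences are shown because many interferon-stimulated genes carry this element in their promoters. A match to its letters describes the sequence and does not mark a bound site. RefSeq promoter windows (build GRCm38.p6), reaching from 250 bases before to 50 bases after each start site, were used for 7 members. *Sting1* was left out of the promoter search. The core of the response element was searched as GAAANNGAAA on both strands (TTTCNNTTTC on the other), and 5 of the 7 genes had at least 1 match, compared with 3.44% of all 32851 windows of that length. *Isg15* had 3 overlapping matches, *Ifit1* and *Ifit3* had 2 each, and *Stat2* and *Ifih1* had 1 each, the latter after the start site. The windows of *Irf7* and *Oasl2* held 0 matches to these letters. A stretch of 120 bases before the start site is given for 4 genes, 5′ to 3′ on the strand of the gene, with matches in capitals.
*Isg15*, minus strand, chr4:156200819-156200938: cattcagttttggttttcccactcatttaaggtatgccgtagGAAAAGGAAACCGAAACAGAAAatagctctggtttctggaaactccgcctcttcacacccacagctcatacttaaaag
*Ifit1*, plus strand, chr19:34640769-34640888: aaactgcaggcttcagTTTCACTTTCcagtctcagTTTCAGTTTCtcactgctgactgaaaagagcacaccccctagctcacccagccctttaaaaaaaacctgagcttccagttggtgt
*Ifit3*, plus strand, chr19:34583349-34583468: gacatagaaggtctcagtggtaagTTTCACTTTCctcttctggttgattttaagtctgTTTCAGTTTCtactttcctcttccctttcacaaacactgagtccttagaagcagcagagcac
*Stat2*, plus strand, chr10:128270248-128270367: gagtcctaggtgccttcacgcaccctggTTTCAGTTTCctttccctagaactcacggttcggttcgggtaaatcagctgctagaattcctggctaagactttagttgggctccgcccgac
The stretches end 1 base before the RefSeq start site for *Isg15* and *Ifit1*, and farther upstream for *Ifit3* and *Stat2*, where their matches lie. RefSeq start sites can differ from the gene coordinates given below, which are from GENCODE. The *Ifit1* stretch thus reaches past the GENCODE start of that gene at 34640871.

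The 8 members had no direction in common between KO and WT livers. Of these, 4 were higher and 4 lower in KO on the log2(TPM + 1) scale, and their median difference was -0.026, beside a median of 0.15 over all tested genes. None had an adjusted p under 0.05 in limma with Benjamini-Hochberg adjustment, and none had an unadjusted p under 0.05, compared with 0.0835% and 10.5% of all tested genes. A difference of at least 2-fold on this scale was found for 1 member, *Stat2*, compared with 3.68% of all tested genes (2.59% higher and 1.1% lower in KO). With upper quartile scaling the *Stat2* difference was 0.98 and no member reached 2-fold. Each KO library lay above each WT library for *Stat2*, as for 34.4% of all tested genes, and below for *Isg15*, as for 10.9%. The groups thus did not overlap for 2 of 8 members, compared with 45.3% of all tested genes. For 7 of the 8 members, the libraries of one genotype differed more from each other than the genotype means did, as was the case for 68.4% of all tested genes.

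**Figure D1:**
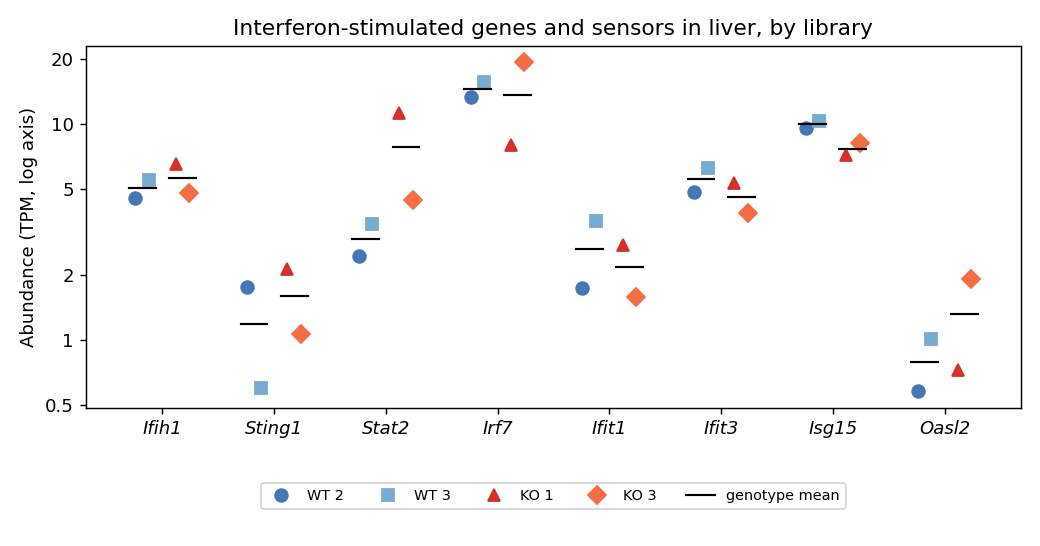
Abundance of the 8 members in each library, in TPM on a log axis. Symbols are the 2 WT and 2 KO libraries and black lines are genotype means. *Stat2* is the 1 gene whose KO libraries both exceed WT, with 11.2 TPM in KO replicate 1, and *Isg15* the 1 gene with both KO libraries below WT.

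The sensor of long double-stranded RNA, *Ifih1* (ENSMUSG00000026896, chromosome 2, 62595798 to 62646255 on GRCm38), stood at 4.56 and 5.48 TPM in WT livers against 6.49 and 4.76 TPM in KO livers. The KO libraries bracketed WT replicate 3, so the genotypes overlapped, and the difference on the log2(TPM + 1) scale was 0.13 (95% interval -0.50 to 0.76). *Sting1* (ENSMUSG00000024349), the adaptor behind the DNA sensor cGAS, stood at 1.76 and 0.599 TPM in WT livers against 2.12 and 1.07 TPM in KO livers. KO replicate 3 lay between the WT libraries, and the difference was 0.27 (95% interval -0.69 to 1.24). Only 7.19% of the tested genes had a lower mean abundance than *Sting1*.

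*Stat2* (ENSMUSG00000040033, chromosome 10, 128270559 to 128292849), the STAT protein particular to type I and type III interferon signalling, stood at 2.44 and 3.43 TPM in WT livers against 11.2 and 4.43 TPM in KO livers. KO replicate 1 stood far above the other 3 libraries, and KO replicate 3 lay just above WT replicate 3. The difference was 1.06 (standard error 0.43, 95% interval -0.0031 to 2.13, adjusted p = 0.475 and unadjusted p = 0.0505 from limma). It was 0.48 without KO replicate 1 and 1.65 without KO replicate 3. For its DNA-binding partner *Irf9*, named after its values were seen, the genotypes overlapped: *Irf9* stood at 8.62 and 9.27 TPM in WT livers against 8.42 and 10.2 TPM in KO livers.

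*Irf7* (ENSMUSG00000025498, chromosome 7, 141262706 to 141266481), the transcription factor that amplifies interferon-alpha production, was the most abundant member. It stood at 13.3 and 15.6 TPM in WT livers against 7.95 and 19.2 TPM in KO livers. The KO libraries held both the lowest and the highest value, and the difference was -0.20 (95% interval -1.20 to 0.81). Without KO replicate 1 it was 0.39, and without KO replicate 3 it was -0.78.

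The libraries ranked for *Irf7* as they did for markers of Kupffer cells, the resident macrophages of the liver. The 10 markers summed to 117.6 TPM in KO replicate 1, 220.3 and 258.1 TPM in WT replicates 2 and 3, and 298.6 TPM in KO replicate 3. KO replicate 1 had the lowest value for 9 of the 10 markers and KO replicate 3 the highest value for 9. No marker was at 0 in any library, and 0 of the 10 had an unadjusted p under 0.05 between genotypes in limma. This order of the 4 libraries was found for 1.99% of all tested genes. Of the 8 members it was found for *Irf7* alone, and of the other interferon genes for 3 more: *Zbp1*, which encodes a sensor of Z-form nucleic acids, *Xaf1* and *Irf9*. *Zbp1* stood at 4.36 and 6.05 TPM in WT livers against 2.44 and 6.67 TPM in KO livers, and *Xaf1* stood at 2.91 and 4.44 TPM in WT livers against 2.04 and 6.94 TPM in KO livers. The part of the Kupffer cell markers in these values was not tested.

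**Figure D2:**
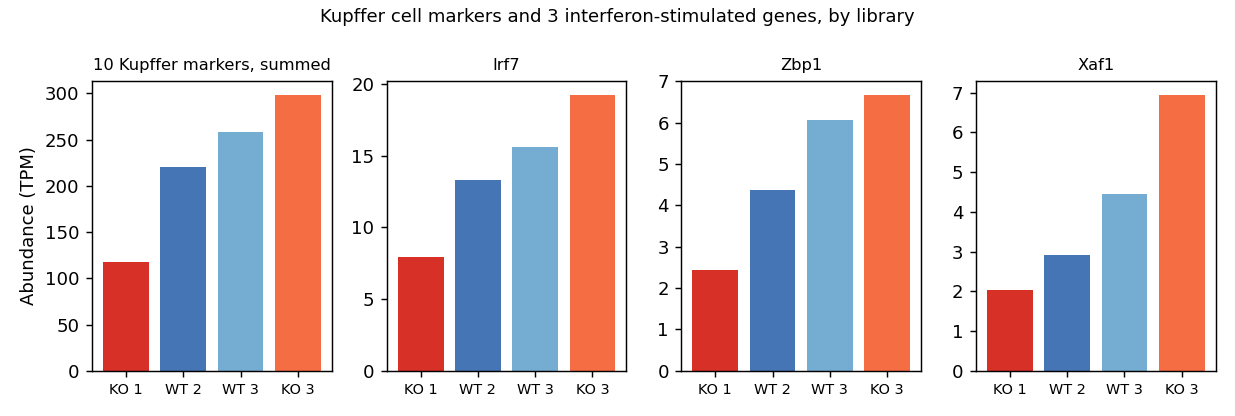
Summed TPM of 10 Kupffer cell markers and TPM of *Irf7*, *Zbp1* and *Xaf1*, with 1 bar per library and libraries ordered by the marker sum. All 4 panels increase from KO replicate 1 through the WT libraries to KO replicate 3. The genes were chosen for this order.

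*Ifit1*, whose protein binds foreign RNA and blocks its translation, lies in the same region of chromosome 19 as *Ifit3*. *Ifit1* (ENSMUSG00000034459, 34640871 to 34650009) stood at 1.74 and 3.55 TPM in WT livers against 2.74 and 1.58 TPM in KO livers, a difference of -0.18 (95% interval -1.08 to 0.72). *Ifit3* (ENSMUSG00000074896, 34583531 to 34588731) stood at 4.86 and 6.21 TPM in WT livers against 5.32 and 3.88 TPM in KO livers, a difference of -0.23 (95% interval -0.88 to 0.42). Both were highest in WT replicate 3 and lowest in KO replicate 3. Of the 31-base stretches of the *Ifit3* transcript, 61.8% also occur in another gene, above all in its neighbour *Ifit3b*, so salmon may have divided reads between them and the *Ifit3* values are uncertain. The corresponding share was 10.5% for *Ifit1*. *Ifit1* was also the 1 member with reads in the table of aligned counts, with 0 and 4 reads in WT and 2 and 0 reads in KO, which is too few for a comparison.

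*Isg15* (ENSMUSG00000035692, chromosome 4, 156199424 to 156200818), a ubiquitin-like modifier that is attached to proteins after interferon, stood at 9.55 and 10.3 TPM in WT livers against 7.17 and 8.15 TPM in KO livers. Of the 8 members it had the smallest SD relative to the mean within each genotype, at 9.94 ± 0.56 TPM in WT and 7.66 ± 0.69 TPM in KO (SD, n = 2 per genotype), and both KO libraries were lower. The difference was -0.34 (standard error 0.21, 95% interval -0.85 to 0.18, adjusted p = 0.563 from limma). It stayed negative with each library left out in turn, between -0.42 and -0.26.

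The 5 other genes of ISG15 conjugation were measured in every library. An unadjusted p under 0.05 in limma was found for 0 of them, compared with 10.5% of all tested genes. *Usp18*, the protease that removes ISG15 and restrains interferon receptor signalling, stood at 2.38 and 3.31 TPM in WT livers against 1.84 and 1.77 TPM in KO livers. *Ube2l6*, which encodes the conjugating enzyme for ISG15, stood at 44.2 and 47.3 TPM in WT livers against 38.4 and 34.0 TPM in KO livers. Each KO library thus lay below each WT library for 2 of the 5 genes, compared with 10.9% of all tested genes. The differences were -0.44 (95% interval -1.10 to 0.21) for *Usp18* and -0.33 (95% interval -0.76 to 0.095) for *Ube2l6*. The *Usp18* difference was -0.27 without WT replicate 3. *Trim25*, a ligase for ISG15 that also acts on RIG-I, lay the other way, as did 34.4% of all tested genes. It stood at 4.78 and 6.13 TPM in WT livers against 7.59 and 6.87 TPM in KO livers. For the activating enzyme *Uba7* and the ligase *Herc6*, the genotypes overlapped, with differences of 0.0038 and -0.059.

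*Oasl2* (ENSMUSG00000029561, chromosome 5, 114896936 to 114912234), of the oligoadenylate synthetase family, was the least abundant member. It stood at 0.578 and 1.01 TPM in WT livers against 0.727 and 1.92 TPM in KO livers, a difference of 0.34 (95% interval -0.56 to 1.23). KO replicate 3 was the highest library and KO replicate 1 lay between the WT libraries.

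**Figure D3:**
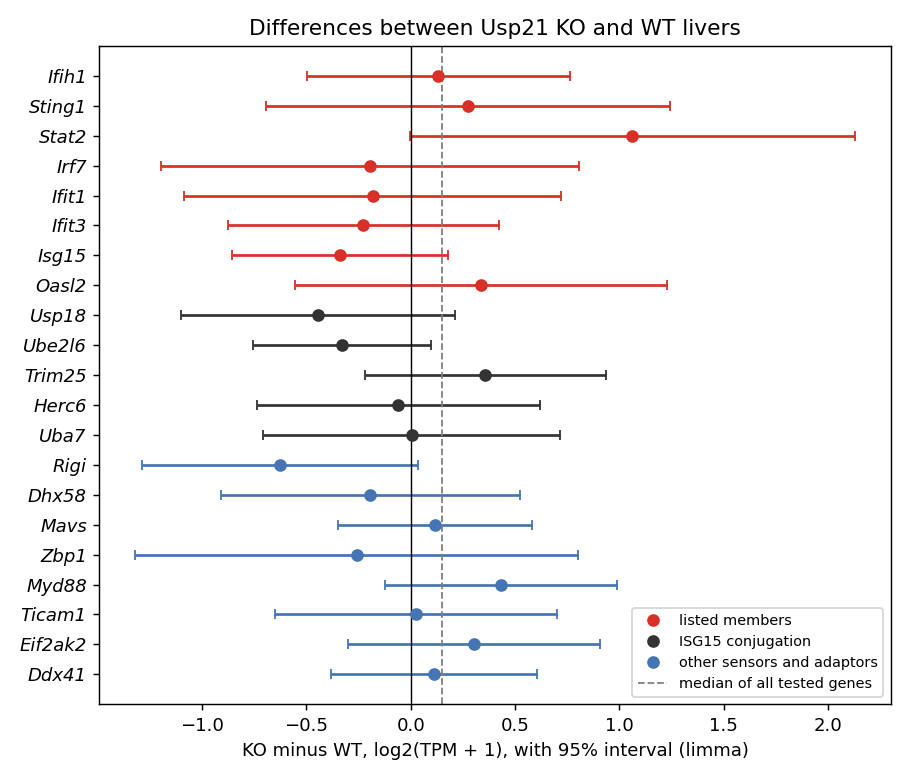
Difference between KO and WT for each gene, in log2(TPM + 1) with 95% intervals from limma, for the 8 members, the 5 ISG15 conjugation genes and 8 other sensors and adaptors. All 21 intervals include 0, and the dashed line marks the median of all tested genes at 0.15.

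By mean TPM over the 4 libraries, the members ranked *Irf7* (14.0), *Isg15* (8.80), *Stat2* (5.39), *Ifih1* (5.32), *Ifit3* (5.07), *Ifit1* (2.40), *Sting1* (1.39) and *Oasl2* (1.06). The one gap in this order was between *Ifit3* and *Ifit1*, whose ranges did not overlap, while each other gene overlapped with its neighbour. *Irf7* was above *Isg15* in 4 of 4 libraries, although their ranges overlapped. All members were below the most abundant of the interferon-stimulated effectors listed here, *Ifitm3*, which encodes a membrane protein that blocks virus entry and had 495.3 to 655.8 TPM.

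Interferons themselves were hardly measured. Of 14 interferon ligand genes, 13 were listed at 0 TPM in all 4 libraries, among them *Ifnb1*. *Ifng* had 0.200 TPM in WT replicate 2 and was listed at 0 in the other 3 libraries. The receptor gene *Ifnar2*, named after its values were seen, differed little between libraries, at 94.0 and 92.5 TPM in WT livers against 91.8 and 92.9 TPM in KO livers.

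Besides the members, 139 genes of the interferon and sensing pathways had values, and 84 of them were tested. Of these, 41 lay higher in KO and 43 lower, and their median difference was -0.0088. An unadjusted p under 0.05 was found for 3 genes in the higher direction, compared with 8.45% of all tested genes, and for 2 in the lower direction, compared with 2.04%. Of all unadjusted calls, 80.6% were higher in KO, and 63.9% with upper quartile scaling. None had an adjusted p under 0.05 in limma.

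Among the other sensors and adaptors, 0 of 8 tested genes had an unadjusted p under 0.05, compared with 10.5% of all tested genes. Of the 8, 5 were higher and 3 lower in KO. *Rigi*, whose protein is a described substrate of USP21, stood at 5.0 and 5.22 TPM in WT livers against 2.37 and 3.65 TPM in KO livers. Both KO libraries were lower, with a difference of -0.63 (standard error 0.27, adjusted p = 0.479 and unadjusted p = 0.0599 from limma) that was -0.39 without KO replicate 1 and -0.86 without KO replicate 3. Each KO library lay above each WT library for 3 of the 8 genes, compared with 34.4% of all tested genes. The KO libraries lay below for *Rigi* alone, compared with 10.9%. The 3 genes above were the adaptor *Myd88* (0.43), the RNA-dependent kinase *Eif2ak2* (0.31) and *Ddx41* (0.11). The RIG-I adaptor *Mavs* stood at 18.5 and 20.03 TPM in WT livers against 19.5 and 22.4 TPM in KO livers, with overlapping genotypes.

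Of 18 tested receptor, kinase and transcription factor genes, 1 had an unadjusted p under 0.05 in limma, compared with 10.5% of all tested genes. This was *Irf2bp2*, which encodes a corepressor that binds IRF2, with 4.16 and 7.24 TPM in WT livers against 13.7 and 11.2 TPM in KO livers (difference 1.04, adjusted p = 0.464 from limma). The next in size, *Socs3* and *Irf1*, rested on WT replicate 3. *Socs3*, an inhibitor of cytokine signalling, stood at 1.80 and 14.96 TPM in WT livers against 4.72 and 1.33 TPM in KO livers. *Irf1* stood at 9.11 and 18.4 TPM in WT livers against 11.5 and 6.19 TPM in KO livers. The 6 neutrophil markers summed to 44.8 TPM in WT replicate 3 and to between 2.27 and 4.31 TPM in the other libraries. *S100a8* and *S100a9* made up most of that sum, at 29.1 and 12.7 TPM in WT replicate 3 and at most 2.26 and 3.04 TPM elsewhere, and *Ly6g* was above 0 in WT replicate 3 alone. The other markers did not follow: *Retnlg* was alike in both WT libraries at 1.46 and 1.66 TPM and listed at 0 in KO, and *Camp* and *Ngp* were listed at 0 in WT replicate 3. The part of these cells in the *Socs3* and *Irf1* values was not tested.

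Of 38 other tested effectors, 18 were higher and 20 lower in KO, and the median difference was -0.017. *Helz2*, a nuclear coactivator with helicase domains, stood at 1.80 and 1.71 TPM in WT livers against 5.42 and 3.33 TPM in KO livers (difference 0.94, adjusted p = 0.464 from limma). *Trim14*, which encodes an adaptor of antiviral signalling, stood at 8.28 and 4.16 TPM in WT livers against 2.25 and 3.08 TPM in KO livers (difference -0.93, adjusted p = 0.469 from limma). Leaving out WT replicate 2 gave -0.50, and leaving out WT replicate 3 gave -1.35. These were the 2 genes of this list with an unadjusted p under 0.05, compared with 10.5% of all tested genes. The third in size, *Ifi27l2a*, ranged from 1.99 to 8.59 TPM within KO and from 4.51 to 11.2 TPM within WT.

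Genes listed as responding mainly to interferon-gamma were lower in KO in 8 of 12 tested cases, with a median difference of -0.15. Over all tested genes, 3187 of 9581 were lower in KO and the median was 0.15. *Igtp*, an immunity-related GTPase, stood at 14.9 and 27.4 TPM in WT livers against 8.91 and 11.4 TPM in KO livers (difference -0.94, adjusted p = 0.464 and unadjusted p = 0.0290 from limma). Leaving out WT replicate 3 gave -0.52, and leaving out WT replicate 2 gave -1.36. *Cxcl10*, a chemokine that attracts T cells, stood at 2.11 and 10.03 TPM in WT livers against 2.15 and 1.12 TPM in KO livers, so that WT replicate 3 alone stood apart. Without WT replicate 3 the *Cxcl10* difference was -0.27. *Tgtp2* had a listed 0 in each WT library, and 0.339 and 3.93 TPM in KO. Its mean of 1.07 TPM passed the filter of 1 TPM only through KO replicate 3. The *Tgtp2* difference of 1.36 was the largest of this list (95% interval -0.18 to 2.91, adjusted p = 0.494 from limma). Without KO replicate 3 it was 0.42. *Tgtp1* stood at 3.05 and 2.11 TPM in WT livers against 2.68 and 1.14 TPM in KO livers. How much sequence *Tgtp2* shares with *Tgtp1* was not measured, so the division of reads between them is unknown. Markers of T and NK cells summed to between 3.2 and 4.53 TPM in each library, and 5 markers of plasmacytoid dendritic cells to between 2.34 and 3.39 TPM. Most of the latter was *Tcf4*, at 1.57 to 2.88 TPM. *Siglech* was at 0.183 TPM in WT replicate 2 and listed at 0 elsewhere, and *Cox6a2* was listed at 0 in WT and at 0.368 and 0.456 TPM in KO.

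The PYHIN genes, some of whose proteins bind DNA in the nucleus or cytosol, lie on the same chromosome as *Usp21*. All 13 lie between 2.06 and 2.72 Mb beyond the end of *Usp21* (chromosome 1, 171281945 to 171287991). The groups did not overlap for 8 of the 13, with 2 higher and 6 lower in KO, beside 45.3% of all tested genes, 34.4% being higher and 10.9% lower. That base leaves out genes under 1 TPM, to which 10 of the 13 belong, so the shares are not directly comparable. *Ifi202b* (173962568 to 173982744), whose protein lacks the pyrin domain, had a listed 0 in each WT library, and 1.61 and 1.49 TPM in KO. *Ifi203* (173920407 to 173942672) stood at 0.859 and 1.09 TPM in WT livers against 3.75 and 2.20 TPM in KO livers (difference 0.98, standard error 0.31, adjusted p = 0.464 and unadjusted p = 0.020 from limma). These were the 2 genes whose KO libraries both exceeded WT, and they are direct neighbours in this list by position.

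The 6 genes below WT in both KO libraries were *Ifi204*, *Ifi206*, *Ifi208*, *Ifi209*, *Ifi211* and *Ifi213*. *Ifi204* stood at 1.26 and 2.23 TPM in WT livers against 0.846 and 0.548 TPM in KO livers. *Ifi213* had 0.435 and 0.489 TPM in WT, and 0.0895 TPM in KO replicate 1 with a listed 0 in KO replicate 3. *Ifi211* had 0.771 and 2.02 TPM in WT, and a listed 0 and 0.362 TPM in KO. *Ifi206* and *Ifi208* were listed at 0 in both KO libraries and had at most 0.566 TPM in WT, and *Ifi209* had at most 0.338 TPM in WT and 0.0702 TPM in KO. The genotypes overlapped for *Aim2*, the sensor that forms an inflammasome on DNA, and for *Ifi205*, *Ifi207*, *Ifi214* and *Mndal*, the last of which ranged from a listed 0 to 2.24 TPM within WT.

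Only *Ifi203*, *Ifi204* and *Mndal* had a mean of at least 1 TPM, and 10 of the 13 genes were under it. Fitted without that filter, *Ifi202b* had an adjusted p of 0.318 from limma. Between 1.2% of the 31-base stretches (*Ifi202b*) and 78.9% (*Ifi211*) also occur in another gene, so that the division of reads within this family is uncertain for most members and least so for *Ifi202b*. The annotated span of *Mndal* (173849126 to 173942491) also covers *Ifi211* and nearly all of *Ifi203* on the same strand. Because the KO allele came from 129/Sv cells, the deletion and the strain origin of the segment linked to *Usp21* cannot be told apart by genotype here.

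**Figure D4:**
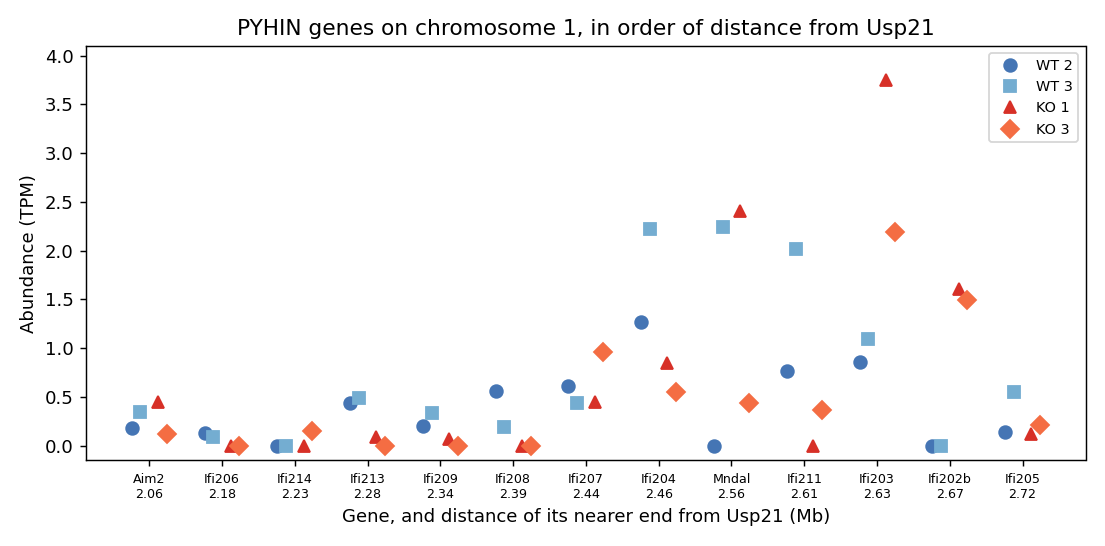
TPM of the 13 PYHIN genes in each library, in order of the distance of the gene's nearer end from *Usp21* in Mb. Symbols are the 2 WT and 2 KO libraries. *Ifi203* and *Ifi202b*, side by side, are higher in both KO libraries, and 6 genes closer to *Usp21* than they are have each KO library under each WT library, as 34.4% (higher) and 10.9% (lower) of all tested genes do, a base without the 10 genes here under 1 TPM.

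The hepatocyte marker *Alb*, with 27475 to 43181 TPM, was the most abundant of the cell type markers examined. Outside these lists, the tested genes whose profile over the 4 libraries lay closest to the mean profile of the 8 members were *Enoph1*, *Frrs1*, *Anxa4*, *Sh3glb1* and *Ptms*, at a mean absolute difference of 0.016 to 0.017 on the centred log2 scale. The mean profile itself was nearly flat, between -0.15 in WT replicate 2 and 0.11 in KO replicate 1.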

How the data were processed

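The authors estimated transcript abundance with salmon on a mouse transcriptome named mm10 and deposited it per Ensembl gene as TPM. They also deposited counts from HTSeq on alignments to mm10, scaled by TMM in edgeR, a signal relative to library size. Tool versions and the strand setting are not given in the sources used here. Groups followed the sample titles, and the number of unassigned per-sample columns was 0.

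Log2(TPM + 1) was fitted for the 9581 genes averaging 1 TPM or more in limma 3.58.1 (lmFit, eBayes with trend), two-sided, with Benjamini-Hochberg adjustment. Differences are KO minus WT, and this scale understates changes of low genes. With 2 libraries against 2, an exact permutation test cannot give a p below 0.333. TPM keeps no record of depth. The scaled counts gave back 102898 to 148164 whole reads per library (100% of values above 0, tolerance 0.02 reads), but listed 428 of 686 genes that reached 100 TPM throughout, and 7 of the 8 members, at 0. On these reads edgeR 4.0.16 called 12 and DESeq2 1.42.0 called 1 of 5146 genes. The tests were checked on simulated data in R 4.3.3. Where changes were planted, low genes were first raised in abundance, so recovery at the members' own abundance was not checked.

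The members, gene lists and tests were chosen with earlier results of these data known. Named genes are the members, *Usp21*, all PYHIN genes above 0 and the 5 genes of most similar profile. From each list, genes averaging 1 TPM or more were named for an unadjusted p under 0.05 or for the 3 largest differences. *Ifitm3*, *Mavs*, *Zbp1*, *Xaf1*, *Uba7*, *Herc6*, *Ifnb1*, *Ifng*, *Tgtp1*, *Ddx41* and the cell type markers were named after their values were seen. Coordinates and transcripts are from GENCODE M21 (GRCm38), which held 35126 of the gene identifiers.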

Additional observations from a re-analysis of the deposited data

How the results depend on the processing

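No paired analysis was possible because the labels name no pairs of libraries between the genotypes. None of the members had an adjusted p under 0.05 under any of the alternatives tried on the TPM values. The number of members at least 2-fold different was 0 in place of 1 (*Stat2*) with either upper quartile scaling or a pseudocount of 5, and between 0 and 1 with a library left out. An unadjusted p under 0.05 was found for 1 member, *Stat2*, with a pseudocount of 0.1 in place of 0 members, and for 0 to 2 with a library left out, the 2 being *Stat2* and *Irf7* without KO replicate 3. Members whose KO libraries all exceeded the WT libraries numbered 1 on all libraries and 1 with every other setting, and between 2 and 3 with a library left out. The median difference of the members was -0.20 among the 5 averaging 5 TPM or more, and between -0.14 and 0.053 with a library left out. Over the other pathway genes, 5 had an unadjusted p under 0.05, compared with 2 among those averaging 5 TPM or more, 8 without a filter and 8 with upper quartile scaling, and between 2 and 7 with a library left out. The 4 without moderation of variances were *Samhd1*, *Irf5*, *Dtx3l* and *Irgm2*, none of them among the 5.

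The direction turned with a library left out for *Ifih1* (-0.059 without KO replicate 1), *Ifit1* (0.08 without KO replicate 3 and 0.18 without WT replicate 3), *Irf7* (0.39 without KO replicate 1), *Oasl2* (-0.043 without KO replicate 3) and *Sting1* (-0.023 without KO replicate 1 and -0.12 without WT replicate 3), and the cause was not tested. With a library left out, the differences ranged from -0.059 to 0.32 for *Ifih1*, -0.55 to 0.18 for *Ifit1*, -0.41 to -0.041 for *Ifit3*, -0.78 to 0.39 for *Irf7*, -0.043 to 0.71 for *Oasl2*, 0.48 to 1.65 for *Stat2* and -0.12 to 0.67 for *Sting1*. The genotype left with 1 library is then assumed to vary like the other. Upper quartile scaling lowered the median of all tested genes from 0.15 to 0.07 and the share of unadjusted calls that were higher in KO from 80.6% to 63.9%, with no member changing direction. On the scaled counts only *Ifit1* could be fitted, with differences of -0.70 in limma and -1.06 in edgeR and DESeq2, so the counts of members were not recomputed there. Depth limits the low genes, whose read numbers are unknown.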
